A study of Mus musculus with 6 samples.

Results

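The redox and antioxidant genes of the NRF2 pathway were followed in aortic smooth muscle cells with and without floxed miR-21 alleles. The set was chosen by gene symbol and holds 10 genes of 20199 in the count table, namely Nfe2l2, Keap1, Hmox1, Nqo1, Gclc, Gclm, Txnrd1, Srxn1, Sod1 and Sod2. All 10 were found and all 10 passed the filter on low counts. The libraries came from aortic smooth muscle cells of C57B6 mice at 12 weeks of age. There were 3 wild-type libraries (genotype WT/mTmG/ Myh11ERT2) and 3 libraries of genotype miR-21fl/flmTmG/Myh11ERT2, called knockout here after the labels' own group name. Both groups therefore carried mTmG, a fluorescent reporter of Cre activity, and Myh11ERT2, an inducible driver under the smooth muscle myosin promoter. The sources used here do not say whether an inducer was given or whether libraries came from separate animals, so p-values reflect only the variation between these libraries, which may be partly technical.

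NRF2, encoded by Nfe2l2, is a transcription factor that controls the defence against oxidants and electrophiles. In unstressed cells KEAP1 binds it and hands it to a ubiquitin ligase for destruction. When cysteines of KEAP1 are modified, NRF2 accumulates, pairs with small MAF proteins and binds antioxidant response elements in the promoters and enhancers of its targets. In the vessel wall this system handles superoxide and hydrogen peroxide, part of which smooth muscle itself makes through NADPH oxidases. The superoxide dismutases are the enzymes that take up superoxide first, in the cytosol (SOD1) and in mitochondria (SOD2).

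The microRNA targeted in the knockout acts by pairing its seed with sites in messenger RNAs, so its sequence and the members' own sequences are shown first. The mature form, from RefSeq on GRCm38.p6, the assembly that corresponds to mm10, lies on the minus strand at chr11:86584120-86584141. Capitals mark the seed, bases 2 to 8.
miR-21a-5p: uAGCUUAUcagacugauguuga
The longest 3′ UTR of each member in GENCODE vM1 was searched for a match to that seed (ATAAGCT, or its last 6 letters followed by A). A site was found in 0 of the 10 members, where 11.9% of 11144 tested genes with a searched 3′ UTR held one. This says only that those letters are not in the sequences searched.

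The core of the antioxidant response element, TGACNNNGC, was searched on both strands of the RefSeq promoter windows, which run from 250 bases before to 50 bases after each start. Windows were at hand for 8 of the 10 members, and 5 of the 8 genes held a match, Nfe2l2, Gclm, Txnrd1, Srxn1 and Sod1. Over all genes with a window the share was 14.0%, and over all windows 12.4%. The longer form of the same motif has an A after its last letter. Among the members it was present in Txnrd1 alone, 1 of 8 genes and 1 of 10 windows. It was held by 3.45% of all genes with a window and by 3.04% of all windows. Those 4 upstream matches that can be compared with the values below are printed on the strand of the gene, with the match in capitals. In Gclm, Txnrd1 and Sod1 the motif reads on the opposite strand, so the capitals show its reverse complement. The match in Srxn1 lay after the start and is not printed.
Nfe2l2: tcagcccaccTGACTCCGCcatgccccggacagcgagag
Gclm: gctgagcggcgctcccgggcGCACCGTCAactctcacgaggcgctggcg
Txnrd1: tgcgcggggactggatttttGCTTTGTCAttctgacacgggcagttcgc
Sod1: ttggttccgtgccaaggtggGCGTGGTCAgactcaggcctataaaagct
These stretches lie at chr2:75704875-75704913 (minus strand), chr3:122245403-122245451, chr10:82859094-82859142 and chr16:90220686-90220734 (plus strand). The Txnrd1 match belongs to 1 of 3 alternative starts, and the other 2 windows held none. In Nqo1, Keap1 and Sod2 these letters were not in the window, which does not bear on more distant elements.

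The libraries held 17123748 to 28610649 counts each. Wild-type replicate 1 stood apart from the others, at −58.1 on the first principal component (40.6% of the variance) against 1.53 to 27.3 for the other 5 libraries, so fold changes without it are also given for each named gene whose value it moved by more than 1.5 times. Smooth muscle markers were high in every library, with a summed level of 10 markers from 50289 to 57731 CPM (TMM-scaled). Acta2 made up much of that sum (19401 to 25310 CPM), and single markers differed more. Wild-type replicate 1 was lowest in Myh11 (6560 CPM, against 9142 to 11026 in the other 5 libraries). It was highest in Tagln (8334 CPM, against 5968 to 6819). Mir21a was not analysed here, so the knockout label was not checked by the deleted gene.

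Across the 10 members no difference between knockout and wild type was called. In edgeR's quasi-likelihood test, 0 of 10 members had an adjusted p under 0.05, where 0 of 15185 genes (0%) passed over the whole table. At an unadjusted p under 0.05 the count was 0 of 10, beside 6.29% of all genes. DESeq2 also called 0 of the 10, beside 0.473% of all genes (69), and limma voom called 0 members and 0 genes, with 990 genes and 0 members at an unadjusted p under 0.05. The fitted mean was higher in knockout for 5 members and lower for 5, beside 50.1% lower over all genes, and the median log2 fold change of the members was −0.0082 against −0.00078 over all genes. The members' adjusted p-values in edgeR ran from 0.778 to 0.995. Since these are bulk samples, fewer cells of a type and less RNA per cell cannot be told apart in any value below.

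**Figure D1:**
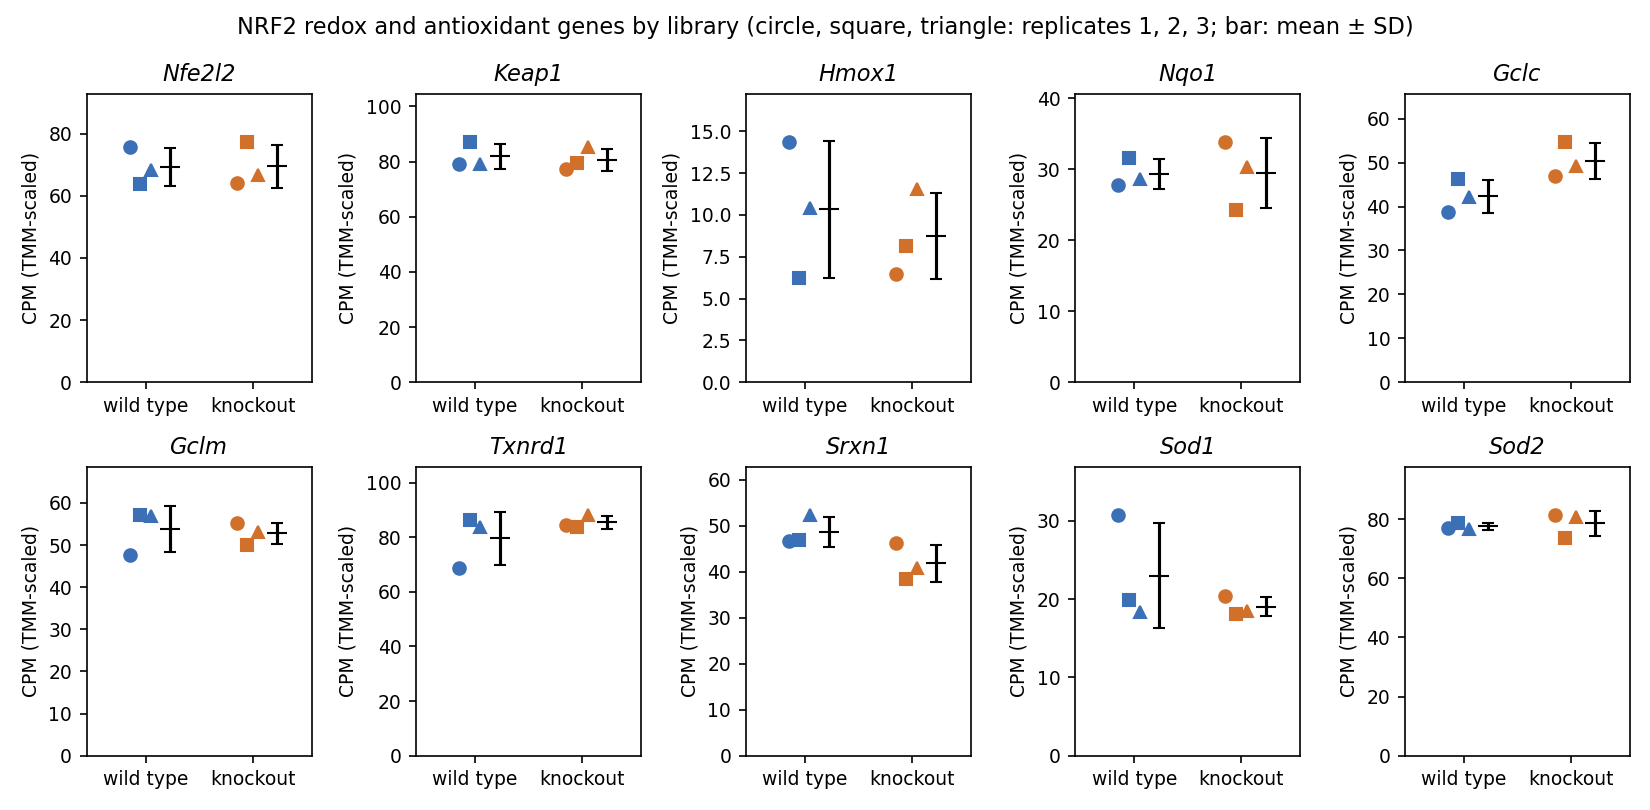
TMM-scaled CPM (vertical axes, from 0) of each member in the 3 wild-type (blue) and 3 knockout (orange) libraries; circle, square and triangle are replicates 1, 2 and 3, and the bars are mean ± SD. The groups lie apart for Gclc and Srxn1, and wild-type replicate 1 is the highest point for Hmox1 and Sod1 and the lowest for Gclc, Gclm and Txnrd1.

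The transcription factor and its sensor differed between the genotypes by less than the spread of the libraries. Nfe2l2 (chr2:75675513-75704641, minus strand) was at 75.7, 63.7 and 68.3 CPM in the wild-type libraries (replicates 1, 2 and 3, the order used throughout) and at 64.3, 77.5 and 66.8 CPM in the knockout libraries. The groups overlapped, with the 2 highest values in wild-type replicate 1 and knockout replicate 2. Its log2 fold change was 0.01 ± 0.12 (SE), and the 95% interval of the fold ran from 0.829 to 1.22; without wild-type replicate 1 the log2 value was 0.08. Keap1 (chr9:21229730-21239361, minus strand), the adaptor that targets NRF2 for degradation, was at 79.2, 87.3 and 79.2 CPM in the wild-type libraries and at 77.3, 79.4 and 85.2 CPM in the knockout libraries. All 6 values fell within a narrow band, and the log2 fold change was −0.02 ± 0.11 (−0.04 without wild-type replicate 1), with a fold interval of 0.831 to 1.17. NRF2 is regulated mostly through protein stability, which these libraries do not measure.

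Among the classical NRF2 targets, the detoxifying enzymes Hmox1 and Nqo1 gave different pictures of spread. Hmox1 (chr8:75093621-75100589, plus strand), the inducible heme oxygenase that breaks down heme, was at 14.4, 6.20 and 10.4 CPM in the wild-type libraries and at 6.49, 8.13 and 11.5 CPM in the knockout libraries. It was the most variable member, with a 2.32-fold range within wild type and a 1.78-fold range within knockout, and the knockout values lay inside the wild-type range. The log2 fold change was −0.23 ± 0.31, with a fold interval of 0.524 to 1.38 (edgeR adjusted p = 0.858). Without wild-type replicate 1, which held the highest value, it was 0.07, and without knockout replicate 3 it was −0.49. Hmox1 was also the member with the fewest counts, 114 in knockout replicate 1 and at most 324.

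Macrophages and erythroid cells are known for heme handling, so their markers are given beside Hmox1. The 11 macrophage markers in the table summed to between 5.23 and 11.1 CPM across the wild-type libraries and between 2.73 and 11.1 CPM across the knockout libraries, and 4 of the 11 were tested. The pan-leukocyte gene Ptprc was at 0 in wild-type replicates 1 and 2, and the macrophage gene Adgre1 was at 0 in those 2 libraries and in knockout replicates 1 and 3. Cd68, another macrophage gene, went the other way, at 2.68 CPM in wild-type replicate 1 and 0.512 to 1.32 CPM in the other 5 libraries. Its groups lay apart, lower in knockout, as did those of 7.57% of all genes. Lyz2 and Cd14 of the same list were lowest in wild-type replicate 1, at 0.416 and 0.951 CPM. In the other 5 libraries they were at 0.569 to 5.25 and 1.12 to 1.86 CPM. The 7 erythroid genes, mostly haemoglobin, summed to 387 CPM in wild-type replicate 1 and to 823 to 1186 CPM in the other 5 libraries. The library with the highest Hmox1 therefore had the lowest haemoglobin signal, the lowest Lyz2 and Cd14 and the highest Cd68. Its macrophage sum lay within the range of the rest. The part of either cell type in the Hmox1 values was not tested.

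Nqo1 (chr8:107388225-107403206, minus strand), a quinone reductase that is widely used to read NRF2 activity, was at 27.7, 31.6 and 28.6 CPM in the wild-type libraries and at 33.9, 24.2 and 30.3 CPM in the knockout libraries. Both the highest and the lowest value belonged to the knockout, in replicates 1 and 2. The means were 29.3 ± 2.06 and 29.4 ± 4.88 CPM (SD, n = 3 each), the log2 fold change 0.01 ± 0.15 (−0.03 without wild-type replicate 1) and the fold interval 0.796 to 1.27.

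Glutathione synthesis held 1 of the 2 members whose groups did not overlap. Gclc (chr9:77754535-77794485, plus strand) encodes the catalytic subunit of glutamate-cysteine ligase, the rate-limiting enzyme. It was at 38.7, 46.2 and 42.1 CPM in the wild-type libraries and at 46.8, 54.8 and 49.3 CPM in the knockout libraries, so the lowest knockout library lay just above the highest wild-type one, and wild-type replicate 1 was the lowest of all 6. Its log2 fold change was 0.25 ± 0.12, the fold interval 0.983 to 1.44 and the edgeR adjusted p = 0.778 (unadjusted 0.0702). The value stayed between 0.18 and 0.32 when any 1 library was left out. Scaled by library totals it was 0.29, with an unadjusted edgeR p of 0.0368 and an adjusted p of 0.735. Groups that do not overlap were found for 2 of 10 members (1 higher, 1 lower) and for 14.5% of all genes tested (6.95% higher, 7.57% lower in knockout).

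The modifier subunit overlapped between the genotypes. Gclm (chr3:122245557-122270732, plus strand), which encodes the subunit that raises the enzyme's efficiency, was at 47.6, 57.1 and 56.9 CPM in the wild-type libraries and at 55.2, 50.1 and 53.0 CPM in the knockout libraries. The knockout values lay within the wild-type range, with a log2 fold change of −0.03 ± 0.12 (−0.11 without wild-type replicate 1) and a fold interval of 0.813 to 1.18. The ratio of Gclc to Gclm CPM within a library was 0.813, 0.808 and 0.739 in wild type and 0.848, 1.09 and 0.930 in knockout. Those ratios did not overlap either, and their means were 0.787 ± 0.0413 and 0.957 ± 0.125 (SD, n = 3 each). They hold the same Gclc values as above, so they are not a separate result. A 2-sided exact permutation test of the log2 ratio gave p = 0.1, the smallest possible here, and 0.3 after adjustment over 3 ratios; those of Nfe2l2 to Keap1 and of Sod2 to Sod1 gave p = 0.9 and 0.4.

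Of the genes that repair oxidised proteins, Srxn1 was the other member without overlap and Txnrd1 overlapped between the genotypes. Srxn1 (chr2:152105516-152111376, plus strand) encodes sulfiredoxin, which restores overoxidised peroxiredoxins. It was at 46.8, 46.8 and 52.3 CPM in the wild-type libraries and at 46.3, 38.4 and 40.9 CPM in the knockout libraries, so knockout replicate 1 lay just under the lowest wild-type library. The log2 fold change was −0.22 ± 0.12, the fold interval 0.712 to 1.04 and the edgeR adjusted p = 0.778. It stayed between −0.29 and −0.16 when any 1 library was left out. Without wild-type replicate 1 it was −0.25, with an unadjusted edgeR p of 0.0449 and an adjusted p of 0.662. Gclc and Srxn1, both known NRF2 targets, thus had fitted differences of opposite sign. In a 2-sided exact permutation test of log2 CPM each gave p = 0.1, the smallest value that 3 against 3 libraries allow. Groups that do not overlap always give this value, so the test adds nothing to the separation.

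Txnrd1 (chr10:82833951-82897712, plus strand) encodes the cytosolic thioredoxin reductase, a selenoprotein. Its values were 68.6, 86.3 and 83.7 CPM in the wild-type libraries and 84.5, 83.7 and 88.1 CPM in the knockout libraries. Wild-type replicate 1 was low and the other 5 libraries lay between 83.7 and 88.1 CPM. The log2 fold change of 0.10 ± 0.12 (fold interval 0.887 to 1.30) went to 0.01 without that library.

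The superoxide dismutases did not differ beyond their spread. Sod1 (chr16:90220742-90226322, plus strand), the cytosolic copper-zinc enzyme, was at 30.7, 19.9 and 18.4 CPM in the wild-type libraries and at 20.4, 18.1 and 18.5 CPM in the knockout libraries. Wild-type replicate 1 was far above the other 5 libraries, and the wild-type SD (6.73 CPM) was accordingly wider than the knockout SD (1.24 CPM). Its log2 fold change of −0.27 ± 0.20 was the lowest of the 10 members (edgeR adjusted p = 0.782, fold interval 0.609 to 1.13), and without wild-type replicate 1 it was −0.01. The deposited values of Sod1 were not whole numbers in any of the 6 libraries, and counters give such fractions where they divide reads between features, so its level is less certain. The same held for Gclm in 6 libraries, Keap1 in 5 and Txnrd1 in 2.

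Sod2 (chr17:13007839-13018119, plus strand), the mitochondrial manganese enzyme, was the steadiest member. It was at 77.1, 78.9 and 76.8 CPM in the wild-type libraries, a range of 1.03-fold, and at 81.4, 73.8 and 80.6 CPM in the knockout libraries. The knockout values lay on both sides of the wild-type ones. The log2 fold change was 0.02 ± 0.10, and the interval of the fold ran from 0.860 to 1.19.

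**Figure D2:**
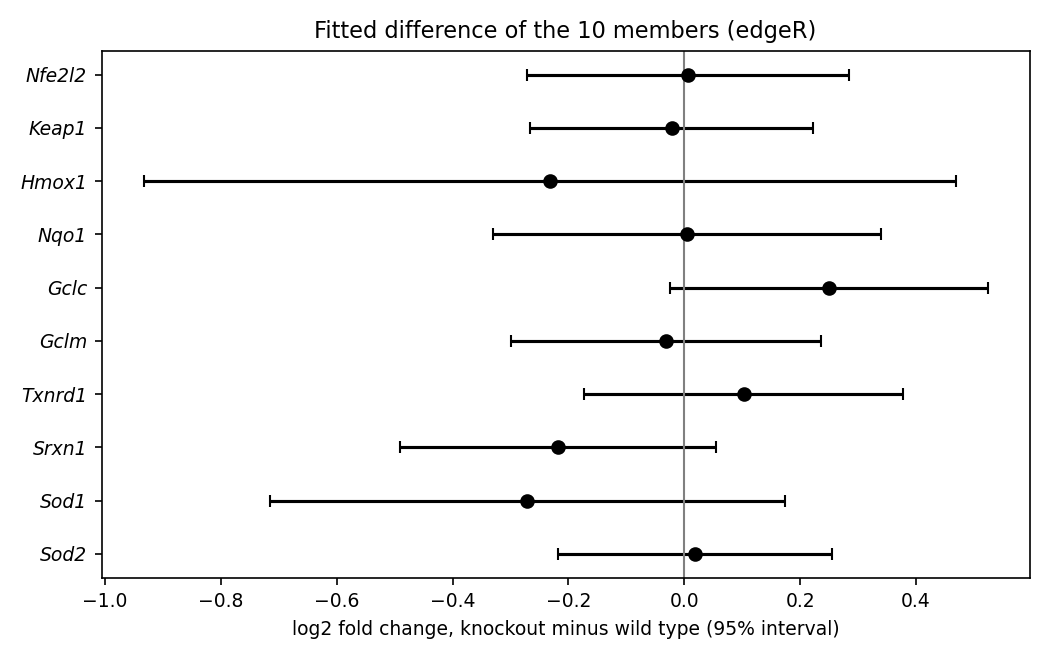
Fitted log2 fold change (horizontal axis, knockout minus wild type) of the 10 members with its 95% interval from edgeR. All 10 intervals include 0; that of Hmox1 is the widest (−0.93 to 0.47) and that of Sod2 among the narrowest (−0.22 to 0.25).

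**Figure D3:**
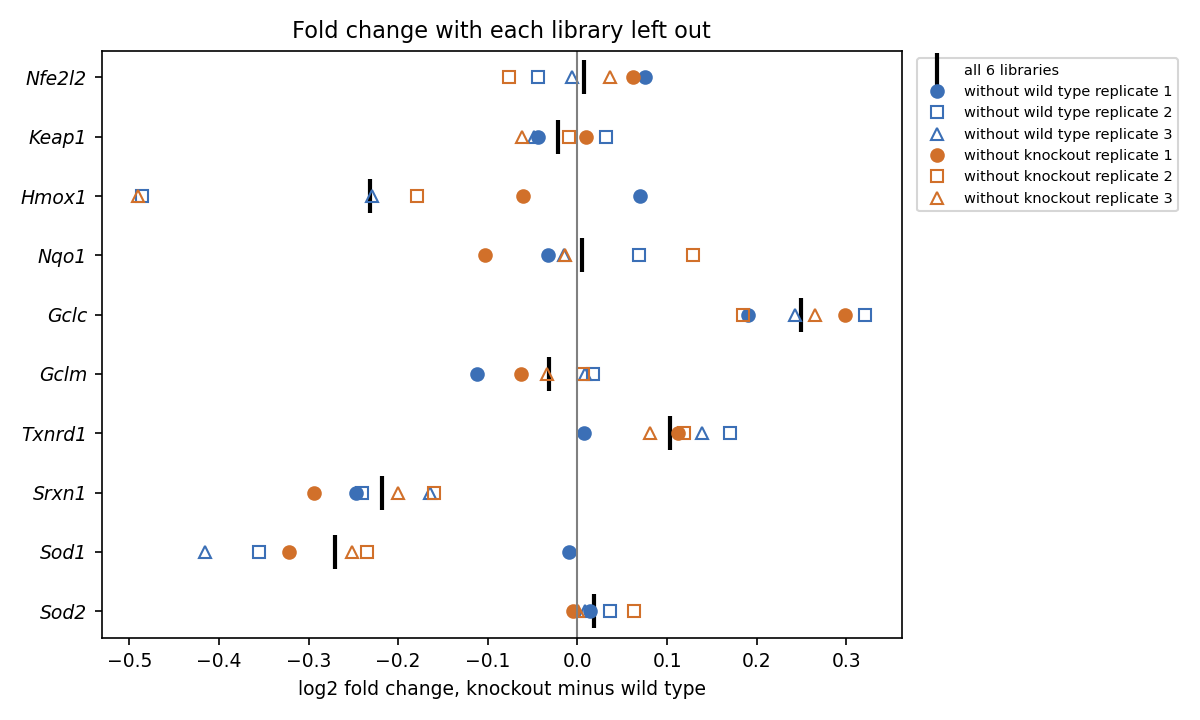
Log2 fold change of each member (horizontal axis, knockout minus wild type) with all 6 libraries (black bar) and with each library left out (symbols). Gclc stays above 0 and Srxn1 below 0 throughout, while Sod1 and Txnrd1 move next to 0 and Hmox1 crosses it without wild-type replicate 1.

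Levels were compared between genes per length, as CPM divided by the kilobases of the longest annotated protein-coding transcript. Sod1 had the highest level per kilobase, with a median of 29.8 over the 6 libraries (28.0 to 47.6), followed by Nfe2l2 with 27.3 (25.7 to 31.3). These 2 ranges overlapped, and that of Nfe2l2 lay above all values of Txnrd1. The next 6 formed a continuous series in which each gene overlapped its neighbour, Txnrd1 (23.2), Sod2 (20.4), Nqo1 (18.9), Keap1 (17.7), Srxn1 (16.5) and Gclc (13.6). Gclm came below (median 11.2, 9.84 to 11.8), overlapping Gclc across the set, although Gclc was the higher of the pair in 6 of 6 libraries. Hmox1 was the lowest, with a median of 5.77 (3.86 to 8.96), below the range of Gclm. The order rests on the transcript taken as the length of each gene (646 bases for Sod1), and other transcripts were not tried.

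**Figure D4:**
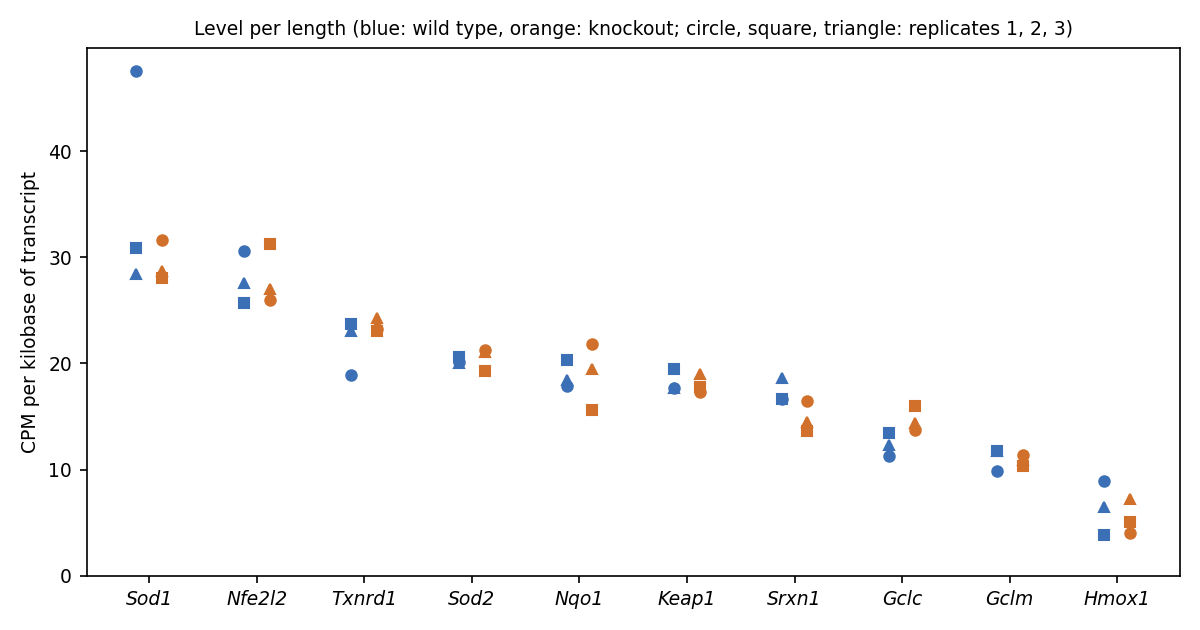
CPM per kilobase of the longest protein-coding transcript (vertical axis, from 0) for each member, in order of the mean, in wild-type (blue) and knockout (orange) libraries. Hmox1 sits lowest, from 3.86 to 8.96, and wild-type replicate 1 lifts Sod1 to 47.6.

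The mean profile of the 6 target genes Hmox1, Nqo1, Gclc, Gclm, Txnrd1 and Srxn1 was nearly flat. These genes did not move together, so the mean is not a profile that they share. Their pairwise correlations over the 6 libraries ran from −0.80 (Gclc with Srxn1) to 0.73 (Gclm with Txnrd1). With every gene centred, the profile on the log2 scale read −0.01, −0.03 and 0.06 for the wild-type libraries and −0.02, −0.08 and 0.07 for the knockout libraries. Replicate 3 of both genotypes was the highest of its group, and the groups overlapped. The genes with the most similar profile over the 6 libraries were Mthfd2l (Pearson r = 0.990), Gm10741 (0.985, at only 0.314 to 1.19 CPM) and Klf10 (0.983). These are the top 3 of all genes tested for likeness, from 6 points that share libraries and depth, so they are a description only.

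Other genes of the pathway and of redox metabolism gave the same picture, with 0 called by edgeR, DESeq2 or limma voom in any of the 5 lists. Among partners and regulators of NRF2, the fitted mean was higher in knockout for 8 of 16 tested genes and lower for 8, with a median log2 fold change of −0.01, and 0 of 16 had an unadjusted edgeR p under 0.05. Those with the smallest p were Palb2 (0.83), Bach2 (−0.35), Cdkn1a (−0.46) and Rbx1 (−0.18). Without wild-type replicate 1, Cdkn1a was at −0.23 and Rbx1 at −0.08. Bach2 belongs to the BACH family of repressors that compete for the same promoter element, and it was at 5.78 ± 0.593 (wild type) and 4.53 ± 0.569 CPM (knockout) (SD, n = 3 each). Rbx1 is the RING subunit of the ligase that KEAP1 serves. Palb2, a DNA repair protein that also binds KEAP1, had only 7 to 26 counts per library. Cdkn1a, a cell cycle inhibitor, ranged from 108 to 238 CPM within knockout.

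Most glutathione enzymes and further NRF2 targets were fitted lower in knockout, and none was called. Of 42 listed genes, 35 were in the table and 32 were tested, and 23 of those 32 were fitted lower in knockout, with a median log2 fold change of −0.10, beside 50.1% lower over all genes. Without wild-type replicate 1 the median was −0.03. Smooth muscle markers were fitted lower for 7 of 10 (median −0.11, and −0.03 without that library). All 7 tested endothelial markers were fitted higher (median 0.26, and 0.16 without that library). That median was the value of Egfl7, with 4 to 26 counts per library. Adventitial fibroblast markers were fitted higher for 5 and lower for 5 (median −0.0025). All 5 tested erythroid markers were fitted higher (median 0.14), but their median was −0.21 without that library. The part of cell makeup in the values of the glutathione list was not tested. Gstt1, a glutathione transferase, was at 54.9 ± 12.6 (wild type) and 37.4 ± 5.804 CPM (knockout) (SD, n = 3 each), with a log2 fold change of −0.55 and an edgeR adjusted p of 0.769. Aldh3a1 (−1.18), an aldehyde dehydrogenase with 4 to 25 counts per library, Abcc1 (0.26), an exporter of glutathione conjugates, and Cbr1 (−0.22), a carbonyl reductase, had the next smallest p-values. Gstt1 and Aldh3a1 were the 2 genes of the 32 with an unadjusted edgeR p under 0.05, beside 6.29% of all genes. The groups did not overlap for 4 of the 32, all lower in knockout, beside 7.57% of all genes in that direction.

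In the NADPH supply, which feeds both glutathione and thioredoxin reduction, 5 of 11 genes were fitted higher and 6 lower in knockout, with a median near 0 (−0.00020). Tkt alone of the 11 had an unadjusted edgeR p under 0.05, beside 6.29% of all genes. The 2 genes of the non-oxidative pentose phosphate branch had the smallest p-values. Tkt, the gene of transketolase, was at 110 ± 2.77 (wild type) and 92.1 ± 6.57 CPM (knockout) (log2 fold change −0.26, edgeR adjusted p = 0.778). Taldo1, the gene of transaldolase, was at 96.0 ± 3.06 and 83.5 ± 4.44 CPM (−0.20). Groups lay apart for 2 of the 11 genes, Tkt and Taldo1, both lower in knockout, beside 7.57% of all genes in that direction. Idh1 (0.28) and H6pd (0.13) overlapped between the genotypes, and without wild-type replicate 1 they were at 0.05 and −0.02.

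Thioredoxins, peroxiredoxins and other antioxidant enzymes were fitted lower in knockout for 21 of 36 genes, with a median log2 fold change of −0.05. Groups lay apart for 7 of the 36, 6 lower and 1 higher, beside 14.5% of all genes (7.57% lower, 6.95% higher). The smallest p-values belonged to Gpx7 (−0.43) and Gpx8 (−0.21), both peroxidases of the endoplasmic reticulum, Glrx2 (0.21), a glutaredoxin, and Prdx5 (−0.24, and −0.12 without wild-type replicate 1), a peroxiredoxin. Gpx7 was at 33.9 ± 5.33 (wild type) and 25.1 ± 2.61 CPM (knockout) (SD, n = 3 each), and it was the 1 gene of the 36 with an unadjusted edgeR p under 0.05 (adjusted p = 0.775), beside 6.29% of all genes.

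Superoxide sources were represented by 7 tested genes of 15 listed, of which 3 were fitted higher and 4 lower in knockout (median −0.05). Cyba, the membrane subunit p22phox of the NADPH oxidases, was at 58.0 ± 9.90 and 46.5 ± 0.874 CPM (log2 fold change −0.32, edgeR adjusted p = 0.778). Without wild-type replicate 1 its log2 fold change was −0.17. Its groups lay apart, as 1 of the 7 genes lower in knockout and 0 higher, beside 7.57% and 6.95% of all genes. Noxo1 (0.34), an organiser subunit, was at 13.8 ± 1.97 and 17.5 ± 1.501 CPM and overlapped between the groups. These 2 of 7 genes had an unadjusted edgeR p under 0.05, beside 6.29% of all genes. Nox4, the oxidase of vascular smooth muscle that makes hydrogen peroxide, was at 211, 390 and 420 CPM in the wild-type libraries and at 478, 371 and 424 CPM in the knockout libraries. Its log2 fold change of 0.32 went to 0.07 without wild-type replicate 1, the low library.

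**Figure D5:**
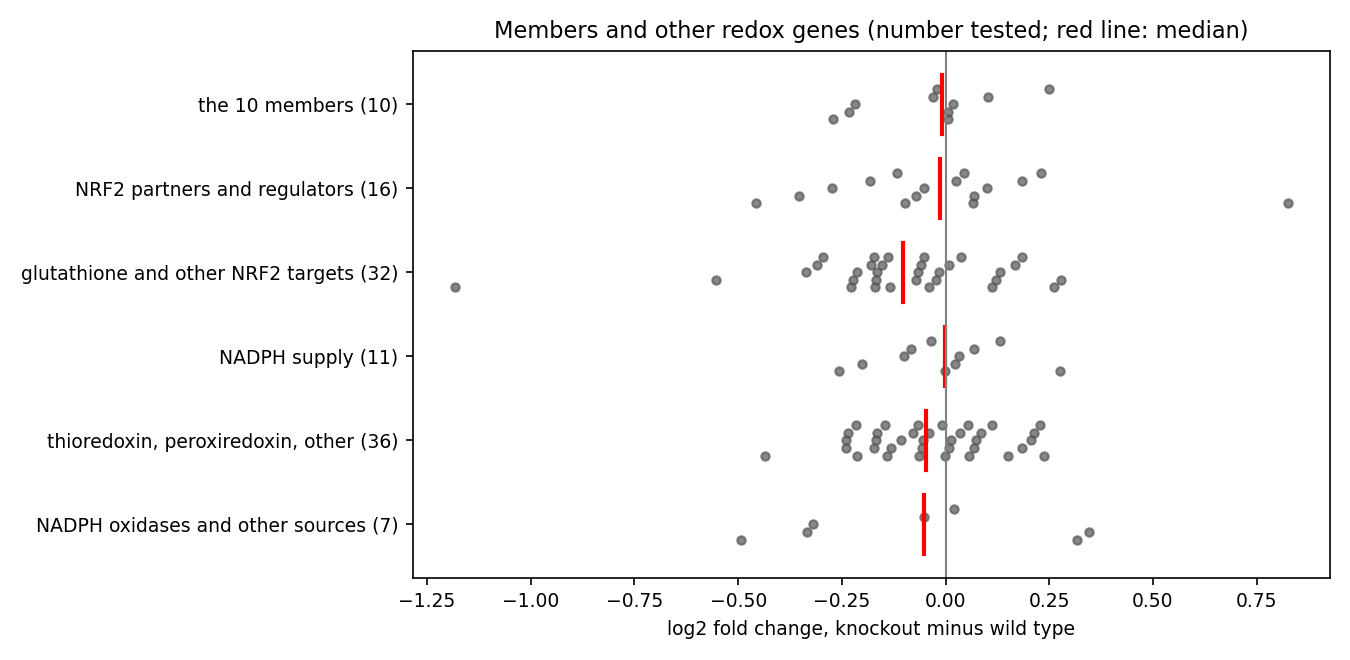
Log2 fold change (horizontal axis, knockout minus wild type) of each tested gene in the members and in the 5 lists of related redox genes, with the list median as a red line. Medians run from −0.10 for glutathione enzymes and other NRF2 targets to −0.00020 for the NADPH supply, and 0 of the genes shown passed the edgeR test.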

How the data were processed

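Bulk RNA libraries of 3 wild-type and 3 knockout samples were analysed. The deposited values are unnormalised expected counts, judged from the values themselves (65.4% whole to within 0.01, with unequal column totals). Per the submitters' processing notes, STAR 2.6, DESeq2 and mm10 were used; the counting tool and strand use are not stated there. Expected counts were rounded, filtered with filterByExpr (15185 of 20199 genes kept), scaled with TMM and tested with edgeR 4.0.16 (glmQLFit and glmQLFTest, robust=TRUE, R 4.3.3), and 2-sided p-values were adjusted by Benjamini-Hochberg across the genes tested, with a threshold of 0.05. Standard errors are the fold change over the square root of F, and 95% intervals use the fit's degrees of freedom. Log2 CPM used a prior count of 2. Alternatives were DESeq2 1.42.0, limma 3.58.1 (voom), other scalings, no filter, robust=FALSE, a replicate block and leaving out each library. Where gene starts matched RefSeq, the deposited stop was 1 base past the end for 1503 genes and equal for 91, so 1 was subtracted. Transcript lengths and 3′ UTRs came from GENCODE vM1, built on NCBIM37, for sequence only. From each list the 4 genes with the smallest p are named, except 1 that is not reported here. The members and lists were chosen with earlier results of these data known.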

Additional observations from a re-analysis of the deposited data

How the results depend on the processing

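In all 13 alternatives 0 of the 10 members were called, and the members' adjusted p-values ran from 0.576 to 0.999; the 5 related lists also kept a count of 0. The number of genes called over the whole table was 0 in edgeR and limma voom, 69 in DESeq2, and 0 to 9 when 1 library was left out (9 without wild-type replicate 1 and 1 without wild-type replicate 2). The members' median log2 fold change ran from −0.03 to 0.03. Gclc, Txnrd1, Srxn1 and Sod1 kept their sign in every alternative. Signs turned for members near 0. With library totals Keap1 was at 0.019 and Gclm at 0.0094, and Nqo1 was at −0.0091 with limma voom and −0.0047 with the replicate block. When 1 library was left out, values ranged from −0.077 to 0.075 for Nfe2l2, −0.062 to 0.032 for Keap1, −0.490 to 0.070 for Hmox1, −0.103 to 0.129 for Nqo1, −0.112 to 0.017 for Gclm, −0.0052 to 0.063 for Sod2 and −0.020 to 0.255 for H6pd. Hmox1 was above 0 only without wild-type replicate 1. The cause was not tested. Promoter matches among members fell from 5 genes to 1 with the longer motif, which by construction matches less often. Replicate numbers gave no sign of pairing. Deviations of same-numbered libraries from their group means correlated at −0.27, −0.18 and −0.08 across genes, and 0 of 6 libraries correlated best with its own number. With the replicate block edgeR called 0 genes, 572 at an unadjusted p under 0.05 against 955 without it. Deviations within a group depend on each other and the block uses up degrees of freedom, so these values cannot tell whether libraries were paired. Hmox1, with 114 to 324 counts per library, has the widest interval of the members.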
